A study of Homo sapiens with 4 samples.

Results

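Mitochondrial DNA is copied and transcribed by proteins made from nuclear genes, and 10 of these genes were examined: TFAM, TFB1M, TFB2M, POLRMT, TEFM, POLG, TWNK, NRF1, PPARGC1A and PPARGC1B. They were found in the deposited table by gene symbol. All 10 were present among its 60609 gene identifiers, and all 10 averaged 1 normalized count or more over the 4 libraries, the level from which genes were tested. The samples were CCRF-CEM cells, a cell line from a human T cell leukaemia, in a derivative carrying an HA-tagged AMPK alpha 2 subunit (genotype CCRF-CEM/HA-AMPKa2) in both groups. One group was kept for 24 h in medium lacking glucose (No glucose, libraries ONG_9 and ONG_10), and the other for 24 h in control medium (Ctrl, libraries CTRL_7 and CTRL_8). The labels do not say which promoter drives the tagged subunit, whether the derivative is a single clone, or whether the 2 libraries of a group were independent cultures. The spread that enters the p-values may therefore be technical.

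As background, TFAM packages mitochondrial DNA and bends its promoters, and the mitochondrial RNA polymerase POLRMT starts transcription there together with TFB2M, which melts the promoter. TEFM makes the polymerase processive, and TFB1M, a relative of TFB2M, methylates the small ribosomal RNA of the mitochondrion. POLG is the catalytic subunit of the replicative DNA polymerase and TWNK its helicase. In the nucleus NRF1 binds the promoters of many genes for mitochondrial proteins, and the coactivators PPARGC1A and PPARGC1B (PGC-1 alpha and PGC-1 beta) raise the activity of NRF1 and of nuclear receptors.

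Upstream sequences of TFAM, TFB2M, TFB1M and POLRMT are shown because all 4 fell without glucose and each holds letters of the type bound by NRF1, itself a member. RefSeq sequences (GRCh38.p14) of the 250 bases before the annotated start were available for 8 of the 10 members, and these were searched on both strands for GCGCANGCG and for the shorter, overlapping GCGCATGC. At least 1 of these strings was present in 4 of the 8 members (TFAM, TFB1M, TFB2M and POLRMT) and in 7.38% of 35116 windows of the same length. Members were counted by gene and the percentages by window. The windows were not limited to expressed or protein-coding genes, as the members are, so the shares are not like for like. POLG and PPARGC1B, which also fell, were searched and held neither string, and TWNK, which fell, was not searched. A link between the strings and the falls was not tested. The ETS-type string CCGGAAG was in 2 of the 8, TFB1M and POLRMT, against 8.52% of all windows. The E-box CACGTG was in 1 of the 8, PPARGC1A, against 6.34% of all windows. For TFAM and TFB2M 30 bases around the NRF1-type letters are given, and for TFB1M and POLRMT the stretch that lies before the gene's exons in GENCODE. The RefSeq start, from which distances are counted, lies inside each of these 4 genes as GENCODE 29 annotates it, so the TFAM and TFB2M stretches are within the gene so annotated. Capitals mark the NRF1-type and ETS-type letters, and each sequence reads 5′ to 3′ on the strand of its gene.
TFAM, chr10:58385337-58385366, plus strand: acgctctcccgCGCCTGCGCcaattccgcc
TFB2M, chr1:246566262-246566291, minus strand: aaggctccgctgttCGCATGCGCaggctct
TFB1M, chr6:155314494-155314734, minus strand: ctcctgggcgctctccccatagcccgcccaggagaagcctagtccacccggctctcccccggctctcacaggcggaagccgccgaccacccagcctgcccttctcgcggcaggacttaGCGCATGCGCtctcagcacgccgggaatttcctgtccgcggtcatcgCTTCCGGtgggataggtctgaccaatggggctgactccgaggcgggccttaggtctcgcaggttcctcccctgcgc
POLRMT, chr19:633605-633787, minus strand: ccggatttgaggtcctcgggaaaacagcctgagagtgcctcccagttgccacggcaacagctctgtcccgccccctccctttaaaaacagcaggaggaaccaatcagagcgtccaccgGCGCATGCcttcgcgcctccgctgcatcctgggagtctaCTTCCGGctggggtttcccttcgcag
The NRF1-type letters began 62 bases before the RefSeq start in TFAM, 16 bases before it in TFB2M and 132 bases before it in TFB1M. In POLRMT they began 132 bases before the start, and also 24 and 18 bases before it, beyond the end of the stretch printed and within the gene as GENCODE annotates it. A match of letters describes the sequence and does not show that a factor is bound there.

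Without glucose 7 of the 10 members fell, none rose, and TEFM, NRF1 and PPARGC1A did not pass the test. TFAM, TFB1M, TFB2M, POLRMT, POLG and TWNK changed by between -38.4% and -29.2% of the control mean, and PPARGC1B fell by 61.2%. The test was limma applied two-sided to log2(normalized count + 1), with p-values adjusted by the Benjamini-Hochberg method over all 27486 genes tested. Among all these genes 20.7% were called lower, 14.4% higher and 35.1% in either direction at an adjusted p under 0.05. With scaling to library totals 6 members were lower and 1 higher, and over all genes 3821 were lower and 6103 higher. Among the 10656 protein-coding genes that averaged 50 normalized counts or more, 47.2% were called lower and 18.9% higher. The median log2 fold change was -0.56 for the 10 members, 0.04 for all genes tested and -0.20 for those protein-coding genes. In bulk RNA a lower level in every cell and a smaller share of expressing cells cannot be told apart.

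The recovered reads per library numbered 19035535 and 20081266 in No glucose and 96698709 and 24513840 in Ctrl, so CTRL_7 was the deepest. T lineage markers summed to between 63123 and 64513 normalized counts in No glucose and between 63066 and 64564 in Ctrl, with 10 of 11 markers at a mean of at least 50. These near-equal sums hide single markers that differed in opposite directions. CD3E had 8846 and 8337 normalized counts in No glucose and 5882 and 5928 in Ctrl, and CD28 was also higher. CD3G had 7564 and 7181 in No glucose and 10043 and 10132 in Ctrl, and CD7 was also lower. Of 6 B cell markers 2 reached that mean, and their sum was 523 to 536 normalized counts in No glucose and 894 to 908 in Ctrl, almost all of it CD79A and CD79B, with MS4A1 and CD22 at 0 in 3 of the 4 libraries. Of 7 adherent cell markers 2 reached it, EPCAM and PECAM1, with sums over all 7 of 1075 to 1207 in No glucose and 1659 to 1688 in Ctrl. EPCAM and PECAM1 made up almost all of these sums, and the collagen and keratin markers had at most 25.3 normalized counts in any library. No myeloid or erythroid marker did, their sums were at most 60.3 and 10.6 normalized counts in any library, and MPO and HBB had 0 reads throughout. The part of the B cell and adherent cell markers in the falls below was not tested.

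**Figure D1:**
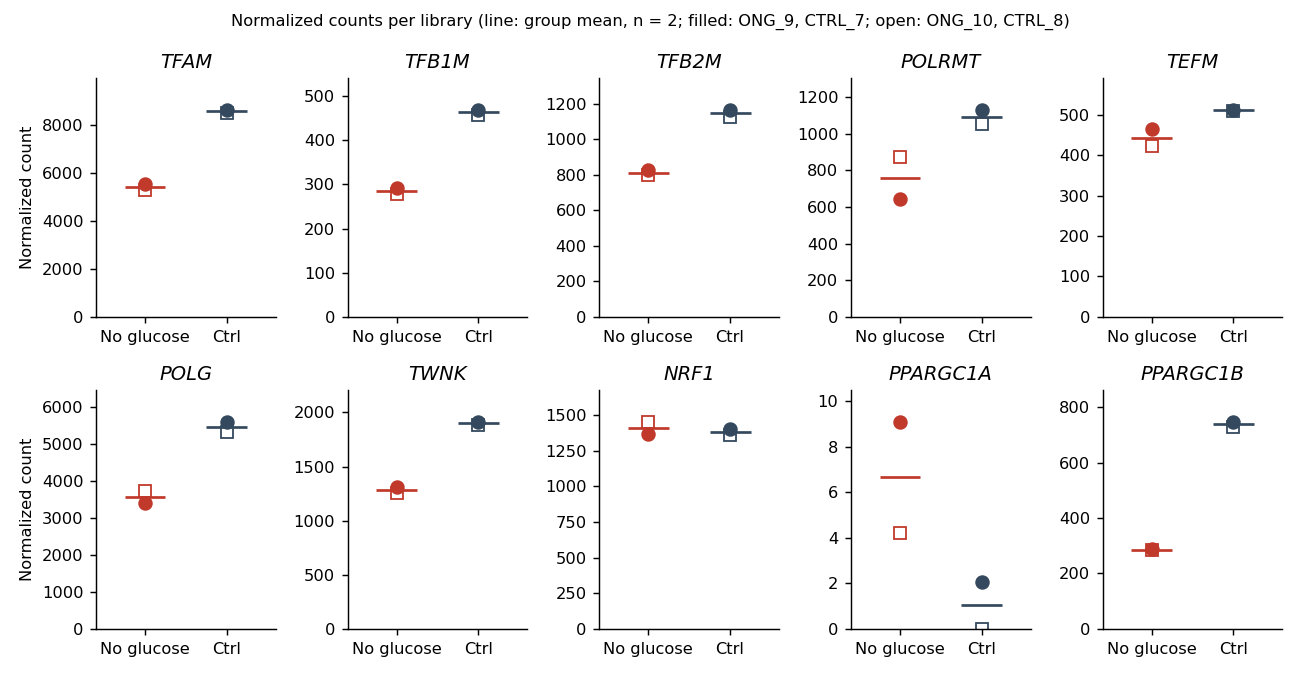
Normalized count of each of the 10 members (vertical axes, each from 0 on its own scale) in the 2 No glucose and 2 Ctrl libraries, with points for libraries and lines for group means. Both No glucose libraries lie below both Ctrl libraries for 8 members and above them for PPARGC1A, and the groups overlap for NRF1. Over all genes tested 31.7% lay below and 35.1% above.

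Of the factors that act at the mitochondrial promoters, TFAM, the packaging and promoter-bending protein, had 5557 and 5287 normalized counts in ONG_9 and ONG_10, against 8654 and 8530 in CTRL_7 and CTRL_8. The groups did not overlap, and the difference was several times the spread within either group. TFAM averaged 5422 ± 191 normalized counts in No glucose and 8592 ± 87.9 in Ctrl (SD, n = 2 each), a log2 fold change of -0.66 ± 0.05 (SE, limma, adjusted p = 2.2e-06). TFB2M, the promoter-melting partner of the polymerase, had 826 and 798 normalized counts in No glucose and 1168 and 1128 in Ctrl. Its log2 fold change was -0.50 ± 0.07 (SE, limma, adjusted p = 0.00021), again with no overlap.

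POLRMT, the RNA polymerase itself, was the most variable of the members that fell. It had 641 and 873 normalized counts in ONG_9 and ONG_10, against 1132 and 1054 in CTRL_7 and CTRL_8, so the No glucose libraries stood apart from each other but both lay below the controls. The log2 fold change was -0.55 ± 0.12 (SE, limma, adjusted p = 0.0042). Without CTRL_7 it was -0.49 with adjusted p = 0.11, and with scaling to library totals -0.33 with adjusted p = 0.10, so the call depends on these choices. The size depends on the No glucose libraries, at -0.32 without ONG_9 and -0.77 without ONG_10.

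TEFM, the elongation factor, had 464 and 422 normalized counts in No glucose and 513 and 508 in Ctrl. These values do not overlap but lie close together, with a log2 fold change of -0.21 (95% interval -0.40 to -0.01) and adjusted p = 0.10 in limma. The call for TEFM was made by edgeR (adjusted p = 0.048; 22.9% of all genes were called lower by edgeR) and without ONG_9 (log2 fold change -0.27, adjusted p = 0.016), and with scaling to library totals the value was 0.0048, so its call and its direction depend on the setting.

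TFB1M, the rRNA methyltransferase, had 293 and 278 normalized counts in No glucose and 469 and 457 in Ctrl. The groups did not overlap, and the log2 fold change was -0.70 ± 0.09 (SE, limma, adjusted p = 0.00012). The ratio of TFB1M to TFB2M was 0.354 and 0.348 in the No glucose libraries and 0.402 and 0.406 in the Ctrl libraries. TFB1M was lower relative to TFB2M in both libraries without glucose, and this ratio was not tested. TFB1M shares 215 exonic bases with the oppositely oriented TIAM2, which rose (log2 fold change 0.74), and the counting strand is not given in the sources used here.

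Both members of the replication machinery fell. POLG, the DNA polymerase, had 3404 and 3722 normalized counts in No glucose and 5596 and 5321 in Ctrl, with a log2 fold change of -0.62 ± 0.06 (SE, limma, adjusted p = 1.4e-05). TWNK, the helicase, had 1312 and 1253 normalized counts in No glucose and 1916 and 1885 in Ctrl, with a log2 fold change of -0.57 ± 0.07 (SE, limma, adjusted p = 3.7e-05). Neither gene had overlapping groups. The ratio of TWNK to POLG was 0.385 and 0.337 in No glucose and 0.342 and 0.354 in Ctrl, so for this ratio the groups did overlap. POLG shares 458 bases, 7.66% of its exons, with the oppositely oriented FANCI, a DNA repair gene that fell as well (-0.80), and TWNK shares 149 bases with MRPL43 (-0.26, not called).

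Among the regulators of nuclear genes, NRF1 was not called. It had 1371 and 1455 normalized counts in No glucose and 1406 and 1360 in Ctrl, 1413 ± 59.7 against 1383 ± 32.2 (SD, n = 2 each). The groups overlapped, and the log2 fold change of 0.03 had a 95% interval of -0.12 to 0.18 (limma, adjusted p = 0.78). Scaling to library totals (0.24, adjusted p = 0.019) and a correction for transcript length (0.20, adjusted p = 0.039) called it higher, and without ONG_10 or with edgeR its value was slightly below 0 (-0.013 and -0.014). The activity of the NRF1 protein was not measured.

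PPARGC1B, the coactivator PGC-1 beta, had 288 and 285 normalized counts in No glucose and 748 and 728 in Ctrl. The groups were far apart and the libraries within a group nearly equal, with a log2 fold change of -1.36 ± 0.09 (SE, limma, adjusted p = 4.5e-07). Of the protein-coding genes averaging 50 normalized counts or more, 2.31% had a lower log2 fold change, against 18.8% for TFAM and 17.2% for TFB1M. The ratio of PPARGC1B to NRF1 was 0.210 and 0.196 in No glucose and 0.532 and 0.535 in Ctrl. PPARGC1A, or PGC-1 alpha, the better known coactivator of muscle, liver and brown fat, had very few reads. There were 6 and 3 reads in ONG_9 and ONG_10, against 6 and 0 reads in the deeper CTRL_7 and in CTRL_8, where 0 reads allow up to 4.01 normalized counts. As normalized counts these are 9.10 and 4.21 in No glucose and 2.06 and 0 in Ctrl. Per normalized library the pooled reads, 9 against 6, gave a ratio of 4.0, with an exact 95% interval of 1.27 to 13.7 that covers counting error only. limma gave adjusted p = 0.054, and the call was made with a pseudocount of 8 (adjusted p = 0.044). PPARGC1B averaged 43.1 times the normalized count of PPARGC1A in No glucose, before any allowance for length.

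For comparing levels between genes, normalized counts were divided by the summed length of each gene's annotated exons, a choice that sets the order in part. In No glucose the order per kilobase was TFAM (967), POLG (596), TFB2M (440), NRF1 (342), TWNK (310), POLRMT (148), TEFM (137), TFB1M (104), PPARGC1B (22.2) and PPARGC1A (0.612). In Ctrl it was TFAM (1533), POLG (913), TFB2M (621), TWNK (460), NRF1 (335), POLRMT (213), TFB1M (169), TEFM (158), PPARGC1B (57.3) and PPARGC1A (0.0948). Neighbours in this order did not overlap between libraries except POLRMT and TEFM in No glucose, with 125 to 170 and 131 to 144 normalized counts per kilobase. The order thus changed at 2 places, where NRF1 stood above TWNK and TEFM above TFB1M without glucose. Within TFAM, at the head of both orders, the level per kilobase was 943 to 991 in No glucose and 1522 to 1544 in Ctrl.

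Both No glucose libraries lay below both Ctrl libraries for 8 of the 10 members and above them for 1. Over all genes tested 31.7% lay below and 35.1% above. The authors' deposited table gives an adjusted p for 9 members, of which 7 are lower and 0 higher at a threshold of 0.05, with a log2 fold change of -0.66 for TFAM and -1.37 for PPARGC1B. Of all genes with an adjusted p in the authors' deposited table, 25.3% are lower and 12.5% higher. TFAM's profile over the 4 libraries, as log2 values centred on the Ctrl mean, was most like those of TFB1M, TRMT10C (a subunit of the enzyme that trims mitochondrial tRNAs) and FASTKD1 among 89 other members and companion genes, with root mean square differences of 0.025, 0.027 and 0.045. That of PPARGC1B was most like those of MYC, SLIRP and HSD17B10, at 0.054, 0.13 and 0.14. Centred this way, a profile mainly carries the size of the log2 fold change, so the likeness largely restates those values. In limma they were -0.66 for TFAM, -0.70 for TFB1M, -0.65 for TRMT10C and -0.73 for FASTKD1. They were -1.36 for PPARGC1B, -1.44 for MYC, -1.21 for SLIRP and -1.16 for HSD17B10. Shared regulation of these genes was not tested.

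The mRNAs made from mitochondrial DNA moved the other way. Their summed level was 210459 and 192151 normalized counts in ONG_9 and ONG_10, against 139890 and 143791 in CTRL_7 and CTRL_8. The ratio of group means was 1.42. MT-CO1, MT-CO2 and MT-CO3 made up most of this sum and so weigh most in every ratio drawn from it. Without them and the light-strand MT-ND6, the sum averaged 31257 ± 2169 normalized counts in No glucose and 23303 ± 862 in Ctrl (SD, n = 2 each), 1.34 times. All mitochondrial mRNAs together made up 0.729% (Wilson 95% interval 0.725 to 0.733) and 0.682% (0.678 to 0.686) of reads in No glucose. In Ctrl they made up 0.421% (0.420 to 0.422) and 0.439% (0.436 to 0.441). These intervals cover counting error only, and libraries of 1 group differ by more than that. Both No glucose libraries exceeded both controls, but with 2 libraries a group the exact permutation test, two-sided, cannot go below p = 0.333, the value obtained. Divided by the level of each factor within the same library, the summed mitochondrial mRNA was 2.25 times as high in No glucose as in Ctrl relative to TFAM, 2.11 times relative to POLRMT, 2.10 times relative to TWNK and 3.65 times relative to PPARGC1B. Relative to TEFM the ratio was 1.64 times and relative to NRF1 1.39 times as high. For TFAM these ratios were 37.9 and 36.3 in No glucose and 16.2 and 16.9 in Ctrl. The groups did not overlap for any of the 9 members with reads in every library. The summed mitochondrial mRNA alone already separated the groups, so a gene that was not called, such as NRF1, gave separated ratios too. This separation is therefore no result about the members, and its share over all genes was not computed.

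**Figure D2:**
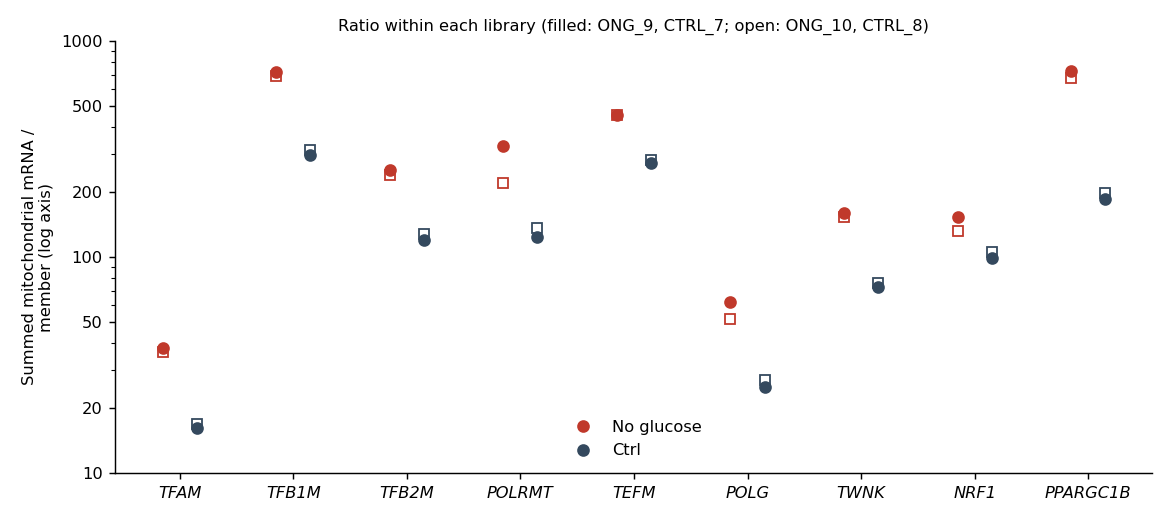
Summed normalized counts of the 13 mitochondrial mRNAs divided by the normalized count of each member in the same library (vertical log axis, no unit), for 9 members in the 2 No glucose libraries (left of each pair) and 2 Ctrl libraries. The No glucose points lie above the Ctrl points for each member drawn, from 1.39 times for NRF1 to 3.65 times for PPARGC1B. The summed counts alone were 1.42 times as high in No glucose, so a member that did not change would be drawn this way too.

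Of the 13 mitochondrial mRNAs 8 rose, 1 fell and 4 did not pass the test, against 14.4% higher and 20.7% lower among all genes tested. With scaling to library totals 12 were called higher and none lower. The rises were unequal along the heavy-strand transcript, from which 12 of them are cut. MT-ATP6 (0.97 ± 0.08), MT-ND4 (0.85 ± 0.06), MT-CO1 (0.84 ± 0.05), MT-ND4L (0.79 ± 0.08) and MT-CO2 (0.73 ± 0.06) had the largest log2 fold changes (SE), followed by MT-ND1 (0.53 ± 0.06) and MT-ND2 (0.46 ± 0.07). MT-CO3, a subunit of complex IV like MT-CO1, had 77107 and 69594 normalized counts in No glucose and 62427 and 63777 in Ctrl, with a log2 fold change of 0.22 ± 0.05 (SE, limma, adjusted p = 0.0080), which was not called without CTRL_7 (0.20, adjusted p = 0.32), without CTRL_8 (0.23, adjusted p = 0.27) or with the correction for transcript length (0.051, adjusted p = 0.47), and was 0.14 without ONG_9. Those not called were MT-ND3, MT-ND5, MT-CYB and MT-ATP8, with log2 fold changes between 0.11 and 0.23. All 4 were called higher with scaling to library totals, at 0.32 to 0.44, and MT-ND5 and MT-CYB also without ONG_10, at 0.20 and 0.16 (adjusted p = 0.024 and 0.031). MT-ATP8 and MT-ATP6 overlap on one bicistronic mRNA, as do MT-ND4L and MT-ND4, so how their reads were divided affects each value. The light-strand mRNA MT-ND6 had 613 and 553 normalized counts in No glucose and 728 and 762 in Ctrl, and fell by 0.36 on the log2 scale (limma, adjusted p = 0.0066). That call was not made without CTRL_7 (adjusted p = 0.094), without CTRL_8 (adjusted p = 0.15) or with scaling to library totals (-0.15, adjusted p = 0.19).

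**Figure D3:**
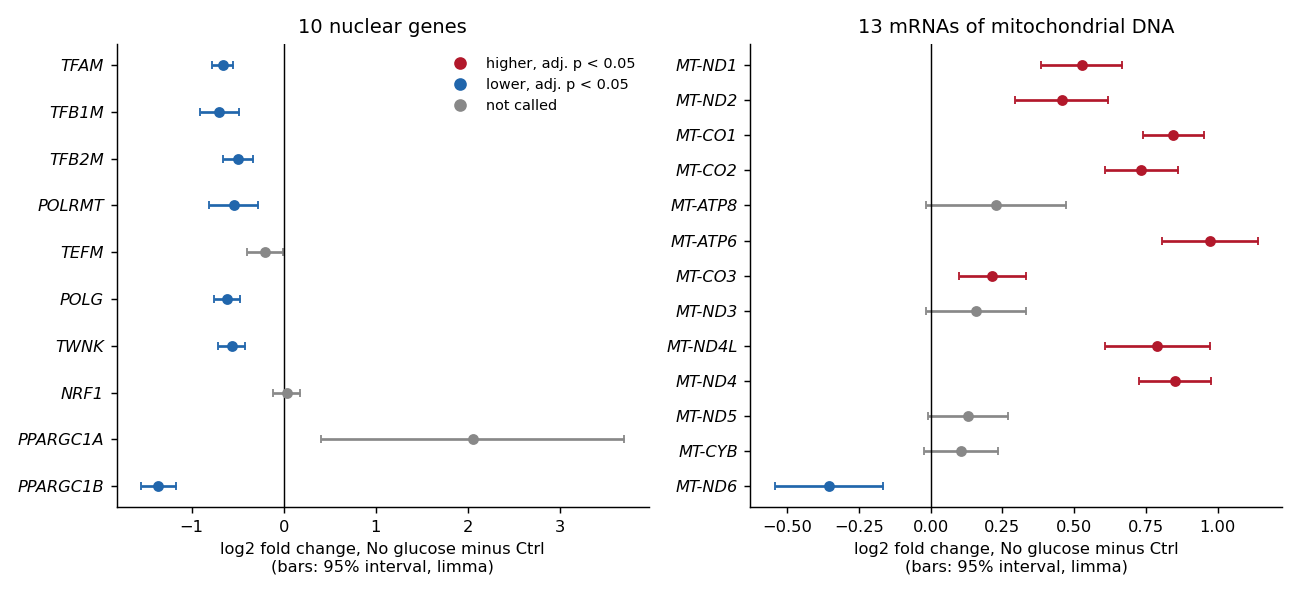
Log2 fold change, No glucose minus Ctrl, of the 10 nuclear members (left) and the 13 mitochondrial mRNAs (right), with 95% intervals from limma (n = 2 libraries a group) and colours for the call. The 7 called nuclear genes lie left of 0, and 8 of the 9 called mitochondrial mRNAs lie right of it, with MT-ND6 as the exception.

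The other RNAs of mitochondrial DNA were also higher where they could be counted. The large ribosomal RNA gene MT-RNR2 had 27045 and 21678 normalized counts in No glucose and 8146 and 13225 in Ctrl, and MT-RNR1 had 6254 and 4229 in No glucose and 1922 and 3966 in Ctrl. The controls differed from each other for both rRNAs, in a protocol whose kit removes ribosomal RNA, and the part of that removal was not tested. Of 22 mitochondrial tRNA genes only 3 had a mean of at least 50 normalized counts, MT-TP, MT-TC and MT-TY, all 3 among the 8 annotated on the minus strand, as MT-ND6 is, and the other 19 had at most 3 reads in any library. MT-TP had 825 and 866 normalized counts in No glucose and 403 and 459 in Ctrl, a log2 fold change of 0.97 ± 0.09 (SE, limma, adjusted p = 7.3e-06). MT-TC (0.56) and MT-TY (0.61) rose too, but neither was called with DESeq2 (adjusted p = 0.059 and 0.075), without CTRL_7 (0.21 and 0.11) or without CTRL_8 (0.10 and 0.058), and MT-TC was 0.24 without ONG_9.

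The companions of the polymerase and helicase in the upkeep of mitochondrial DNA fell for the most part. Of 20 genes for maintenance of mitochondrial DNA and its nucleotides 15 fell, 1 rose and 4 did not pass the test, with a median log2 fold change of -0.46. That is 75% lower, against 20.7% of all genes tested and 47.2% of the protein-coding genes averaging 50 normalized counts or more. Fewer were called without CTRL_7, as among all genes tested. Scaling to library totals gave 12 lower and 3 higher, against 3821 lower and 6103 higher among all genes. SSBP1, the single-stranded DNA binding protein of the fork, averaged 2353 ± 123 normalized counts in No glucose and 4670 ± 8.52 in Ctrl (SD, n = 2 each), a log2 fold change of -0.99 ± 0.06. The topoisomerase TOP1MT (-0.85 ± 0.07), the nuclease-helicase DNA2 (-0.73 ± 0.06) and the nuclease MGME1 (-0.29 ± 0.08) fell as well. The call of MGME1 was lost under 4 of 12 alternatives, among them scaling to library totals (-0.081) and the correction for transcript length (-0.22). POLG2, the accessory subunit of the polymerase, was not called: it averaged 639 ± 3.12 normalized counts in No glucose and 653 ± 14.2 in Ctrl, a log2 fold change of -0.03 ± 0.08 (SE, limma, adjusted p = 0.80). The carrier SLC25A36, which brings pyrimidine nucleotides into the mitochondrion, was the 1 that rose (0.21 ± 0.06), with no call without CTRL_7 or CTRL_8 (adjusted p = 0.24 and 0.25).

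Genes that process, modify or stabilise mitochondrial RNA fell in 26 of 34 cases, with 1 rise, 7 not called and a median of -0.46. That is 76.5% lower, against the same 20.7% and 47.2%. Scaled to library totals it was 18 lower and 4 higher, against 3821 lower and 6103 higher among all genes. Fewer were called without CTRL_7, as among all genes tested. LRPPRC, which stabilises the heavy-strand mRNAs, averaged 14351 ± 712 normalized counts in No glucose and 19642 ± 138 in Ctrl (-0.45 ± 0.05, log2, SE), and its partner SLIRP averaged 1350 ± 147 in No glucose and 3108 ± 16.5 in Ctrl (-1.21 ± 0.08). TRMT10C, the methyltransferase subunit of mitochondrial RNase P (-0.65 ± 0.07), and ELAC2, which trims the 3′ ends of tRNAs (-0.80 ± 0.06), fell. PRORP, the nuclease of RNase P, was not called at -0.26 ± 0.12 (limma, adjusted p = 0.10), but was called without ONG_9 (-0.42, adjusted p = 0.0029). MRM1, an rRNA methyltransferase (-1.20 ± 0.29), and MRPL12, a ribosomal protein reported to bind POLRMT (-1.17 ± 0.40), were among the 3 largest falls but had low counts, with means of 17.4 and 28.6 normalized counts in No glucose and 41.4 and 59.8 in Ctrl. Neither was called with DESeq2 (adjusted p = 0.077 and 0.10). The call of MRM1 was lost under 2 of 11 alternatives and that of MRPL12 under 6 of 11. MRM1 was -1.02 without CTRL_8, and MRPL12 was -0.46 without ONG_9 and -0.86 without CTRL_7. MRPL12 shares 701 of its 1028 exonic bases with AC139530.2, a protein-coding gene on the same strand with 0 normalized counts in every library. How reads were divided between MRPL12 and AC139530.2 was not tested. Of the MTERF family, relatives of the mitochondrial termination factor, MTERF2 was the 1 rise of the list, at 136.6 ± 10.6 normalized counts in No glucose and 42.2 ± 0.877 in Ctrl (SD, n = 2 each), with a log2 fold change of 1.67 ± 0.17 (SE, limma, adjusted p = 1.5e-05). MTERF1 (0.01 ± 0.07), MTERF3 (-0.19 ± 0.08) and MTERF4 (-0.01 ± 0.06) were not called, though MTERF1 and MTERF4 were called higher with scaling to library totals (0.22 and 0.20) and MTERF3 lower without ONG_9 (-0.27).

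The wider set of nuclear regulators of mitochondrial biogenesis was mixed. Of its 26 tested genes 11 fell, 7 rose and 8 did not pass the test, with a median of -0.16, and ESRRG and PPARG were too low to test. The 42.3% that fell compare with 20.7% of all genes tested and 47.2% of protein-coding genes averaging 50 normalized counts or more. The balance turned under library-total scaling (5 lower, 10 higher, median 0.05) and under the correction for transcript length (6 lower, 8 higher, median -0.03). The third PGC-1 family member, PPRC1, averaged 1633 ± 51.7 normalized counts in No glucose and 2383 ± 69.4 in Ctrl (-0.55 ± 0.06, log2, SE). Of the subunits of the ETS factor GABP, which shares many targets with NRF1, GABPA was called at -0.23 and GABPB1 at -0.17 on the log2 scale (limma, adjusted p = 0.021 and 0.049), and GABPB2 was not called at 0.05 (adjusted p = 0.63). With scaling to library totals these were -0.020, 0.042 and 0.26, with GABPB2 then the only call (adjusted p = 0.0070), and without CTRL_7 or CTRL_8 neither GABPA nor GABPB1 was called. The call of GABPA was lost under 4 of 12 alternatives, among them the correction for transcript length (-0.075). That of GABPB1 was lost under 7 of 12, the same correction among them (-0.016), and its sign turned under 1 more. ESRRA, the receptor most often paired with PGC-1, was not called at -0.27 ± 0.13. MYC, which also drives genes of mitochondrial biogenesis, changed by -1.44 ± 0.05, RXRA by -0.75 ± 0.16 and TFEB by -0.75 ± 0.19. The call of RXRA was lost under 1 of 12 alternatives, without CTRL_7, and that of TFEB under 3, that setting among them. The muscle regulator PERM1 (2.02 ± 0.66) and the transcription factor MEF2D (1.09 ± 0.08) rose, PERM1 at only 8.06 ± 1.47 normalized counts in No glucose and 1.51 ± 1.65 in Ctrl, and with no call without CTRL_7 (1.29), ONG_9 (1.85) or ONG_10 (2.18). PRKAA2, the AMPK alpha 2 gene whose tagged copy the cells carry, was picked after its values were seen: it averaged 666 ± 5.58 normalized counts in No glucose and 409 ± 0.0944 in Ctrl, and reads of the tagged and the native copy cannot be told apart. Without CTRL_7 or without CTRL_8 fewer of these regulators were called, in both directions, and fewer of all genes tested were called too.

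**Figure D4:**
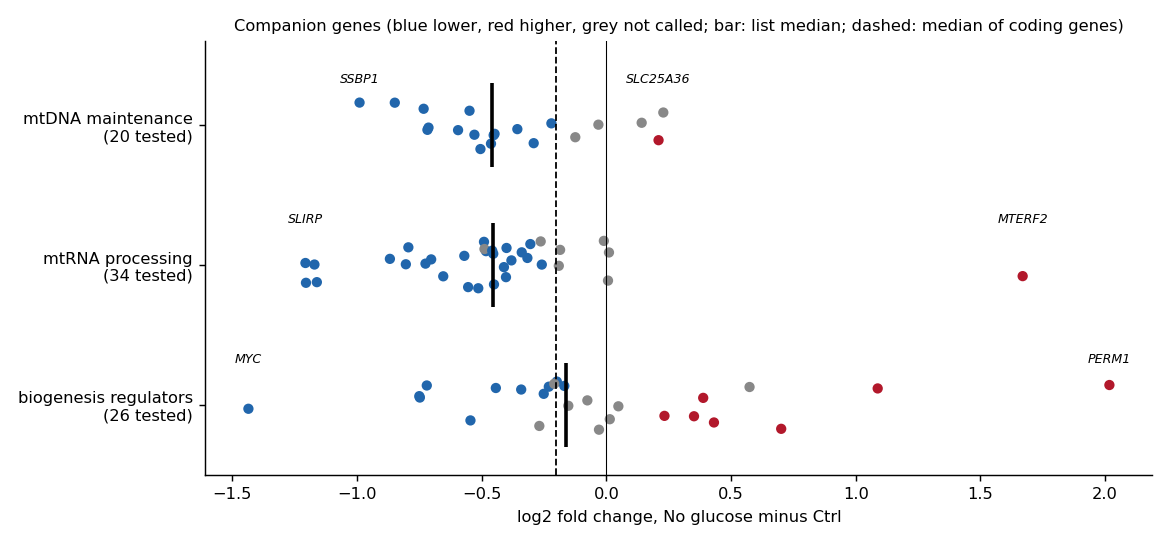
Log2 fold change, No glucose minus Ctrl (horizontal axis), of each tested gene in 3 companion lists, coloured by call, with list medians as bars and the median of protein-coding genes averaging 50 normalized counts or more (-0.20) as a dashed line. The mtDNA maintenance and mtRNA processing medians (both -0.46) lie left of the dashed line, and the median of biogenesis regulators (-0.16, or 0.05 with scaling to library totals) lies right of it.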

How the data were processed

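RNA of 2 No glucose and 2 Ctrl libraries was sequenced as 75 base single-end reads from a stranded total RNA kit, per the labels' protocols. Per the submitters' processing notes STAR 2.6.0c, RSEM 1.3.0 and DESeq2 1.18.1 were used with hg38; the annotation release and counting strand are not given in the sources used here. The signal values, as deposited by the authors, are gene counts divided by a size factor per library. Division by each library's smallest step returned whole reads (tolerance 0.01) for 100% of the nonzero values. The log2 fold changes with standard errors, the score (test statistic) and the p-values of the authors' own comparison are as deposited. Columns named CTRL and ONG were assigned to groups by name; they carry no replicate number of the labels.

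limma 3.58.1 with a mean-variance trend (R 4.3.3) was run on log2(normalized count + 1) of genes averaging 1 or more, a scale that understates changes of low genes, at an adjusted p threshold of 0.05. Alternatives were edgeR 4.0.16 and DESeq2 1.42.0 on recovered reads, other scaling, filters and pseudocounts, a transcript length correction, and leaving out each library. With 1 library left in a group, that library is assumed to vary like the other group. Each test was also run on simulated counts, in which every gene had the same variability beyond counting and only a small share of genes changed. Many more genes were called here, so that run does not show how well the p-values hold for these data. Exons and biotypes are from GENCODE 29. Members and lists were chosen with earlier results of these data known. Named companions are the 3 largest called changes in a list's main direction, up to 2 in the other, and direct partners or paralogs of members.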

Additional observations from a re-analysis of the deposited data

How the results depend on the processing

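TFAM, TFB1M, TFB2M, POLG, TWNK and PPARGC1B were called lower under all 12 alternatives, with log2 fold changes from -0.71 to -0.45 for TFAM and from -1.41 to -1.15 for PPARGC1B. Between 6 and 8 members were called in any direction. Scaling to library totals moved the median of all genes tested from 0.04 to 0.24 and that of protein-coding genes averaging 50 normalized counts or more from -0.20 to 0.01; 6 members were then lower and 1 higher, 6103 genes were higher and 3821 lower, and the sign turned for TEFM (0.0048). The sign of NRF1 turned with edgeR (-0.014) and without ONG_10 (-0.013, the lowest of -0.013 to 0.073 over libraries left out), and a correction for transcript length turned MT-ATP8 (-0.0042) and MT-ND3 (-0.081). For the companion genes and tRNA genes named, the same alternatives were added after seeing the data. Scaling to library totals turned POLG2 (0.18), MTERF3 (0.020), MTERF4 (0.20) and GABPB1 (0.042), the length correction turned POLG2 (0.12) and MTERF4 (0.051), and MTERF1 turned with edgeR (-0.030), without CTRL_7 (-0.013) and without ONG_9 (-0.0088), against up to 0.034 with another library left out. Leaving out 1 library at a time gave 5345 to 10559 called genes, against 9643 with all, and 5345 without CTRL_7 and 6101 without CTRL_8. It gave 10 to 17 called genes for maintenance of mitochondrial DNA, against 16, and 8 to 18 biogenesis regulators, against 18, with 8 without CTRL_7 and 11 without CTRL_8. With 1 library left out, the spread within groups came only from the group left whole. The part of this in the counts was not tested. The difference in the mitochondrial mRNA share was 0.276 percentage points of all reads (SD 0.033 in No glucose and 0.012 in Ctrl). It was 0.276 without mitochondrial rRNA and tRNA reads and 0.294 as a share of protein-coding reads. The ratio of group means was 1.64 for the share of all reads and 1.42 for normalized counts. No paired analysis was possible because the columns carry no replicate number of the labels. Depth limits PPARGC1A, with at most 6 reads in any library.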

Other observations

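Nuclear copies of mitochondrial genes can take reads from the mitochondrial mRNAs. Of 394 such copies listed in GENCODE 29 by name, 2 had a mean of at least 50 normalized counts. All 394 summed to 1105 and 1028 normalized counts in No glucose and 587 and 611 in Ctrl. MTATP6P1, a copy on chromosome 1, had 581 and 498 normalized counts in No glucose and 234 and 227 in Ctrl, a log2 fold change of 1.22 (limma, adjusted p = 4.1e-06), where MT-ATP6 itself changed by 0.97. Reads of such copies and of the mitochondrial gene may not be separable, and the part of this in either value was not tested.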
